A study of Sus scrofa with 12 samples.

Results

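The cytosolic ribosomal protein genes are the genes named RPL and RPS with a number, together with RPSA, RPLP0 and RPLP2, in the authors' deposited comparison table. This rule gave 48 of the 25880 genes of the count table. Of the 48, 24 are named for the large ribosomal subunit, among them the paralogues RPL3L, RPL7L1 and RPL26L1. A further 2 (RPLP0 and RPLP2) encode proteins of its stalk, and 22 are named for the small subunit. The 48 genes lie on 15 chromosomes. Messenger RNA was measured by RNA sequencing in tissue labelled as striatum from newborn piglets (Sus scrofa), 6 in a DHCA group and 6 in a sham group. DHCA is deep hypothermic circulatory arrest, in which the heart and the circulation are stopped in a cooled body. Under isoflurane, the DHCA piglets went through a chest opening onto cardiopulmonary bypass and were brought down to 18 °C. Arrest lasted 30 min, rewarming to 37 °C was again on bypass, and recovery lasted 6 h. The sham piglets are described only as kept under isoflurane anaesthesia, so bypass, cooling, surgery and arrest cannot be told apart in this comparison.

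The ribosome is built from ribosomal RNA and a fixed set of proteins, nearly all of which are present in a single copy per particle. The small subunit decodes the messenger RNA, the large subunit forms peptide bonds, and the stalk recruits the elongation factors. Transcripts of ribosomal proteins in vertebrates begin with a run of pyrimidines, the TOP motif, through which mTOR signalling and the protein LARP1 control how well they are translated. A change in their translation need not change the amount of messenger RNA, which is what was counted here.

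The libraries held 1377809 to 12933536 counts, and the 48 genes together had 7689 to 69817 counts per library. Values are given as CPM, counts scaled to a common library size, here after TMM scaling, which sets the typical gene equal between libraries. Sham 1 (2515816 counts) and Sham 5 (1377809 counts) were the shallowest libraries. They also had the lowest share of mitochondrially encoded counts, at 4.01% and 7.30%, while the other 10 libraries had 10.6% to 26.3%. Sham 4 went against its tissue label. Its DRD1, a dopamine receptor of striatal spiny neurons, was at 1.14 CPM, while the DHCA libraries had 209 to 369 CPM. Its SLC17A7, a glutamate transporter of cortical excitatory neurons, was at 838 CPM, while the DHCA libraries had 2.15 to 5.71 CPM. The 15 spiny neuron markers held 0.0408% of counts in Sham 4 and 0.317% to 0.828% in the other 11 libraries. Counts and medians over the family are therefore given with and without these libraries, and single genes without Sham 1.

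The share of counts held by ribosomal protein genes overlapped between DHCA and sham piglets. The 48 genes held 0.473% to 0.573% of the counts of the DHCA libraries (median 0.531%) and 0.441% to 0.558% of those of the sham libraries (median 0.523%). The groups overlapped, and Sham 1 was the lowest of the 12 libraries. The mean share was 0.532% ± 0.0335 in DHCA and 0.513% ± 0.0447 in sham (SD, n = 6 each), a difference of 0.0186 percentage points. Without Sham 1 the difference was 0.00424 percentage points, and without Sham 1, Sham 4 and Sham 5 it was -0.00122 percentage points. Of the counts outside the mitochondrial chromosome, the 48 genes held 0.634% ± 0.0385 in DHCA and 0.595% ± 0.0770 in sham (SD, n = 6 each), a difference of 0.0394 percentage points that was larger than the SD in DHCA and smaller than that in sham. With the 10 most abundant genes also left out, the shares were 0.681% ± 0.0422 in DHCA and 0.636% ± 0.0839 in sham, a difference of 0.0447 percentage points. Without Sham 1 the sham means on these scales were 0.622% and 0.664%. In these bulk samples fewer cells of a type and less RNA per cell cannot be told apart.

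The 26 large subunit genes held 0.288% ± 0.0213 of counts in DHCA and 0.285% ± 0.0201 in sham, and the 22 small subunit genes held 0.243% ± 0.0148 in DHCA and 0.228% ± 0.0248 in sham (SD, n = 6 each). The ratio of large subunit to small subunit counts ran from 1.07 to 1.24 in the DHCA libraries and from 1.21 to 1.33 in the sham libraries. The ranges overlapped between 1.21 and 1.24. The lowest ratio was 1.07 in DHCA 3, and the next DHCA library had 1.17. The highest were 1.33 in Sham 1 and 1.32 in Sham 4, and the other sham libraries had 1.21 to 1.25. The mean ratio was 1.19 ± 0.0598 in DHCA and 1.26 ± 0.0548 in sham (SD, n = 6 each), and 1.24 ± 0.0481 in sham without Sham 1 (SD, n = 5). Without Sham 1 the sham libraries held 0.292% ± 0.0128 in large subunit genes and 0.236% ± 0.0181 in small subunit genes.

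**Figure D1:**
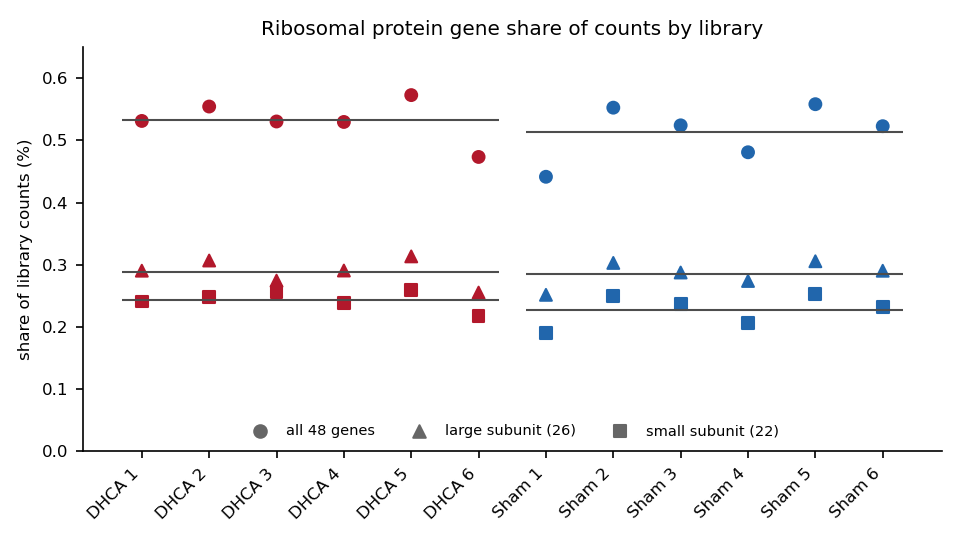
Share of each library's counts (percent, vertical axis) in all 48 ribosomal protein genes (circles), the 26 of the large subunit (triangles) and the 22 of the small subunit (squares), for the 6 DHCA libraries in red and the 6 sham libraries in blue. Lines are group means; the totals run from 0.473% to 0.573% in DHCA and from 0.441% to 0.558% in sham, and the groups overlap in each class.

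Most of the family was abundant, but RPL10A, with exon overlap in the deposited gene models, and RPL3L, without it, had few counts. The part of exon overlap in low counts was not tested. In the count table, 14 of the 48 genes shared exon bases with another gene and 34 shared none, and the deposited counting command had no option to count a read that overlaps several genes. RPL10A, a protein of the large subunit's side arm (the L1 stalk), shared 69.8% of its exon bases with FANCE and had 0 to 5 counts in the DHCA libraries and 0 to 4 in the sham libraries. RPL32 and RPL10, which shared 64.6% and 55.3%, still had medians of 124 and 154 CPM in the DHCA libraries and 111 and 142 CPM in the sham libraries. RPL3L, a relative of RPL3 known from heart and skeletal muscle, had 0 to 12 counts in the DHCA libraries and 1 to 6 in the sham libraries, with no exon overlap. RPL10A and RPL3L did not pass the filter on low counts, so 46 of the 48 genes were tested.

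A further 15 gene IDs carried a ribosomal protein name only in a reference table of pig genes. Of these, 11 had counts and 4 were at 0 in all 12 libraries. RPL29 and RPS27A, whose gene models lay wholly inside exons of ACY1 and MTIF2, were among the 4, as was RPS21, which shared 81.7% of its bases with CABLES2. The fourth was RPL10L, an intronless relative of RPL10 known from testis, with no overlap. Over the 63 IDs together, the 7 that shared over 50% of their bases had a median of 0.275 CPM per kilobase, the 15 with a smaller overlap 40.5 and the 41 with none 61.0. Of the 7, RPL32 had 63.4, RPL10 47.15 and RPL23A 18.9, and the rest had 0.275 or 0. The length includes the shared bases, whose reads are not counted, so a lower level with more overlap is partly built into this measure. RPS2, a core small subunit protein, had 589 counts over the 12 libraries in spite of a model of 5835 bases, 32% of it shared. Several other family members have no row under their usual names and are not analysed here, among them RPS6, RPS14 and RPL13A.

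**Figure D2:**
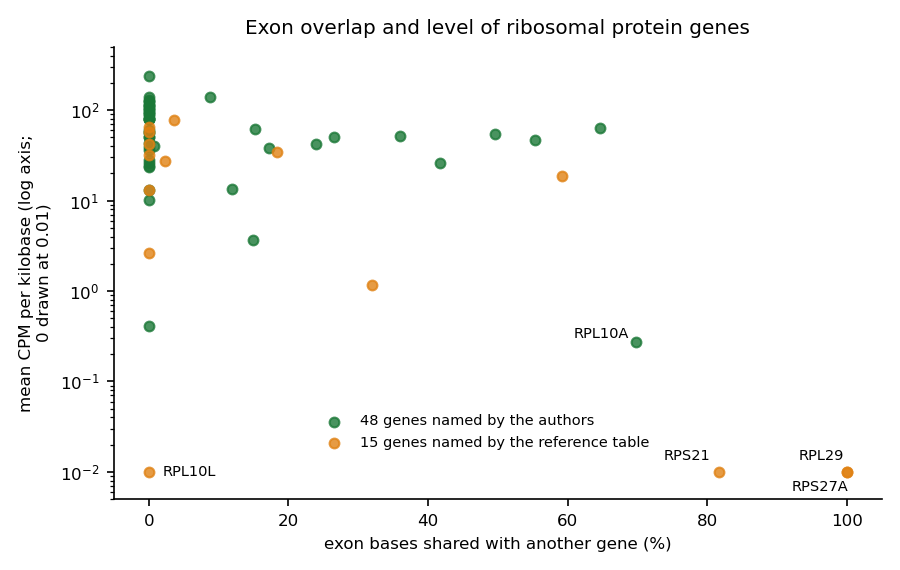
Mean level over 12 libraries (CPM per kilobase of gene model, log axis, with 0 drawn at 0.01) against the percent of exon bases shared with another gene, for the 48 ribosomal protein genes named by the authors (green) and the 15 named only by the reference table (orange). RPL29, RPS27A and RPS21 lie at 0 with 100%, 100% and 81.7% overlap, RPL10A lies near 0 with 69.8%, and RPL10L lies at 0 with none.

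Levels per length spanned a 74.4-fold range in sham, although nearly all of the proteins enter the ribosome in equal numbers. Dividing CPM by the length of the deposited gene model, RPL11 was highest, with 254.7 ± 39.4 CPM per kilobase in DHCA and 220.0 ± 68.6 in sham (SD, n = 6 each). RPL11 is the large subunit protein that, with RPL5 and the 5S ribosomal RNA, binds MDM2 when ribosome assembly is disturbed. It was followed in sham by RPS28, RPS16 and RPS18, whose sham means of 132.9, 122.9 and 121.7 CPM per kilobase lay within 1 SD of each other, and by RPLP0 at 118.7. At the low end, RPS27, a zinc finger protein of the small subunit, had 4.36 CPM per kilobase in DHCA and 2.96 in sham. Next came the paralogues RPL7L1, with 10.4 in DHCA and 10.2 in sham, and RPL26L1, with 14.2 in DHCA and 12.2 in sham. The median over the 46 genes was 58.5 CPM per kilobase in DHCA and 58.3 in sham. Model lengths ran from 325 to 6013 bases, and the 3 highest genes had models of 537, 325 and 567 bases, so these levels depend on the models. RPL11, RPS28 and RPS16 share no exon base with another gene, and RPS27 shares 15.0% of its bases.

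**Figure D3:**
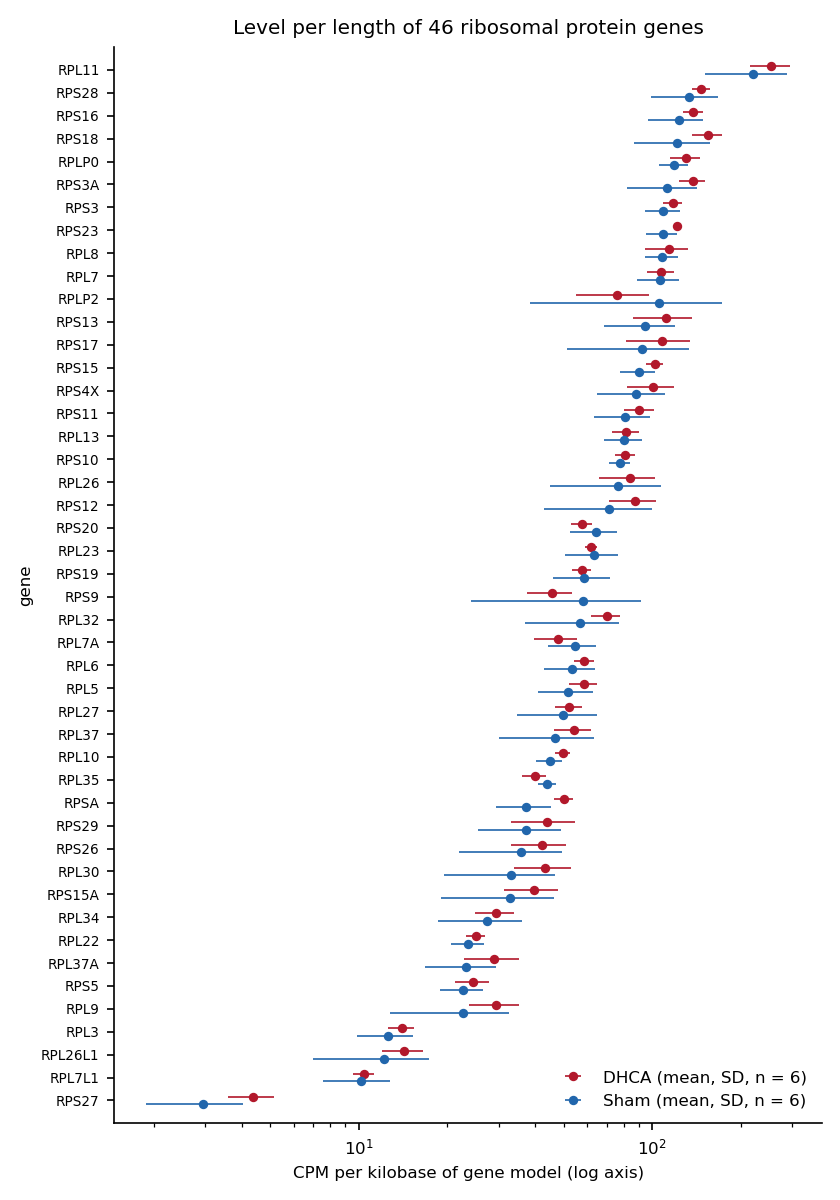
Level per length of the 46 tested ribosomal protein genes (CPM per kilobase of the deposited gene model, log axis) as mean and SD over 6 DHCA libraries (red) and 6 sham libraries (blue), ordered by the sham mean. RPL11 stands at the top with 254.7 in DHCA and 220.0 in sham, RPS27 at the bottom with 4.36 in DHCA and 2.96 in sham, and the bars of the groups overlap for every gene but RPSA.

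No ribosomal protein gene passed the test between DHCA and sham. By edgeR's quasi-likelihood test with Benjamini-Hochberg adjustment over all 14004 genes tested, 0 of the 46 genes had an adjusted p under 0.05, where 0.186% of all genes did (26 genes, 19 higher and 7 lower). The smallest adjusted p in the family was 0.505. DESeq2 also called 0 of the family (background 1.1%), as did limma-voom (background 0.193%) and limma-voom with sample quality weights (background 1.48%). At an unadjusted p under 0.05 edgeR counted 1 of the 46, RPSA, where 7.9% of all genes passed. In none of the 46 genes were the DHCA and sham values free of overlap, where 0.993% of all genes were.

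The fold changes were small and mostly positive with all 12 libraries. A log2 fold change is DHCA minus sham throughout. In the edgeR fit 39 of the 46 genes were positive (49.5% of all genes were), with a median of 0.16 on the log2 scale, beside -0.0030 over all genes. The range ran from -0.47 for RPLP2 to 0.50 for RPS27. Most of the size of this tilt went with 1 library, while the count of positive genes changed little. Without Sham 1 the median was 0.06, with 36 of 46 positive (50% of all genes). Without Sham 1 and Sham 5 the median was 0.04, with 33 of 46 positive, and without Sham 1, Sham 4 and Sham 5 it was 0.01, with 26 of 46 positive. Leaving out Sham 4 alone gave a median of 0.14, and leaving out DHCA 3 gave a median of 0.10. The small subunit had a median of 0.18 with 19 of 22 positive, and the large subunit with its stalk 0.13 with 20 of 24 tested genes positive. Without Sham 1 these medians were 0.08, with 20 of 22 positive, and 0.03, with 16 of 24 positive. Without Sham 1 and Sham 5, 19 of 22 and 14 of 24 were positive. Without Sham 1, Sham 4 and Sham 5, 12 of 22 and 14 of 24 were.

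For single tested genes, the intervals bounded the size of a change relative to the typical gene. Standard errors of the log2 fold changes ranged from 0.13 to 0.33 over the family. The 95% interval lay within a 2-fold change in either direction for 44 of the 46 genes, and within a 1.5-fold change for 25. Without Sham 1 these counts were 46 and 43. RPLP2 and RPL9 were the genes whose intervals reached past 2-fold with all libraries.

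**Figure D4:**
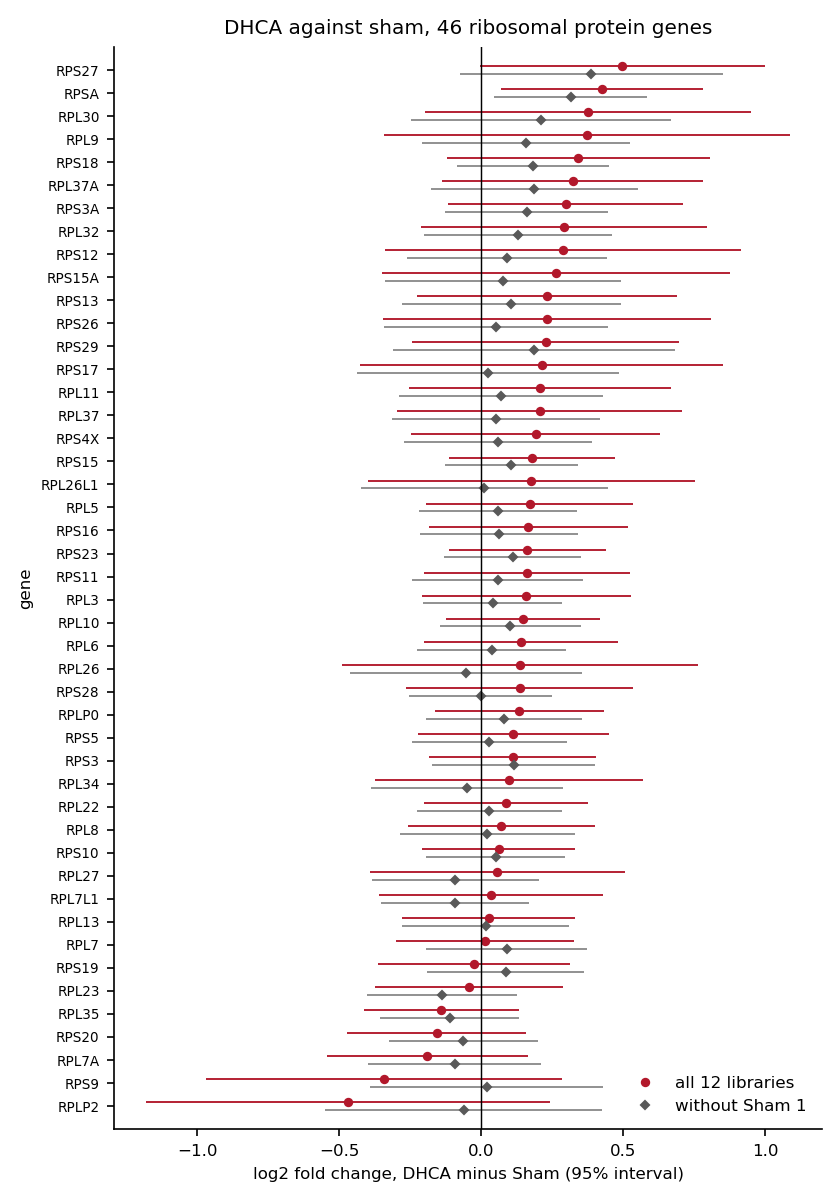
Log2 fold change, DHCA minus sham, of the 46 tested ribosomal protein genes with 95% intervals from edgeR, with all 12 libraries (red circles) and without Sham 1 (grey diamonds), ordered by the first. With all libraries the values run from -0.47 (RPLP2) to 0.50 (RPS27); without Sham 1 the median is 0.06, and RPSA has an interval on one side of 0 in both fits.

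Among small subunit genes, RPSA came closest to a difference. RPSA encodes a protein on the solvent side of the small subunit that is also known as the laminin receptor (chromosome 13, 24072510 to 24083686, plus strand, Sscrofa11.1). It had 176.6 to 208.0 CPM in the DHCA libraries, with a median of 199 CPM, and 89.2 to 177.1 CPM in the sham libraries, with a median of 149 CPM. The groups overlapped only in that Sham 5, at 177.1, was above DHCA 1 and DHCA 4. The log2 fold change was 0.42 with a standard error of 0.17 and a 95% interval of 0.07 to 0.78, with adjusted p = 0.505 by edgeR. Without Sham 1 it was 0.31, with an interval of 0.04 to 0.58 and adjusted p = 0.487 by edgeR, and without Sham 1, Sham 4 and Sham 5 it was 0.33. In the authors' deposited table the RPSA log2 fold change was 0.44, with p = 0.0027 and adjusted p = 0.13.

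RPS27 had the most positive fold change of the family (chromosome 4, 95695809 to 95699449, minus strand). It had 8.42 to 12.8 CPM in the DHCA libraries, with a median of 10.5 CPM, and 3.99 to 10.6 CPM in the sham libraries, with a median of 7.67 CPM. The 2 shallow libraries, Sham 1 with 11 counts and Sham 5 with 6 counts, were the lowest, and Sham 2 reached the middle of the DHCA range. The log2 fold change was 0.50, with a standard error of 0.23 and adjusted p = 0.638 by edgeR. It was 0.39 without Sham 1, 0.28 without Sham 1 and Sham 5, and 0.27 without Sham 1, Sham 4 and Sham 5. RPS27 shares exon bases with NUP210L, UBAP2L and a gene without a name, so reads in those bases are not part of its count.

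RPS18, which sits in the head of the small subunit and contacts the large one, had 70.6 to 98.5 CPM in DHCA (median 83.1) and 27.9 to 82.5 CPM in sham (median 71.9). Sham 1 stood far below the other sham libraries, the next of which was at 70.6 CPM. Its log2 fold change was 0.34 with a standard error of 0.22, and 0.18 without Sham 1. RPS3A had 164 to 213 CPM in DHCA (median 193) and 78.7 to 199 CPM in sham (median 163), with a log2 fold change of 0.30 that was 0.16 without Sham 1. For both genes the groups overlapped, with adjusted p = 0.765 and 0.774 by edgeR.

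RPS9 and RPS20 were the most negative of the small subunit. RPS9, whose bacterial relative binds ribosomal RNA early in assembly, had 61.6 to 87.9 CPM in DHCA (median 76.9) and 56.7 to 205 CPM in sham (median 72.4). The medians lay in the opposite order to the fold change of -0.34 (standard error 0.29, adjusted p = 0.812 by edgeR), which rested on the 205 CPM of Sham 1. Without Sham 1 it was 0.02. RPS20 had 172 to 217 CPM in DHCA (median 191) and 186 to 287 CPM in sham (median 197), with a fold change of -0.16 that was -0.06 without Sham 1. Its highest value was again in Sham 1.

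Other small subunit genes with known roles had values that overlapped between the groups and did not pass the test. RPS3, at the messenger RNA entry site and also a DNA repair factor, had 187 to 234 CPM in DHCA (median 208) and 156 to 225 CPM in sham (median 203), with Sham 4 lowest. RPS4X, encoded on the X chromosome, had 173 to 278 CPM in DHCA (median 204) and 94.2 to 230 CPM in sham (median 187). RPS19, the gene most often mutated in the human disorder Diamond-Blackfan anaemia, had 153 to 190 CPM in DHCA (median 178) and 133 to 249 CPM in sham (median 177). These 3 genes overlapped between the groups over most of their ranges. Their log2 fold changes were 0.11 (RPS3), 0.19 (RPS4X) and -0.03 (RPS19), and without Sham 1 they were 0.11, 0.06 and 0.09. The RPS16 values were 73.3 to 90.6 CPM in DHCA (median 75.9) and 44.6 to 85.2 CPM in sham (median 73.8). RPS28 had 42.9 to 52.5 CPM in DHCA (median 47.6) and 21.7 to 53.6 CPM in sham (median 45.1). For both of these genes the lowest library was Sham 1, and their fold changes of 0.16 and 0.13 were 0.06 and -0.0024 without it.

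In the large subunit the most positive genes were RPL30 and RPL9. RPL30, which in yeast binds its own transcript and blocks its splicing, had 52.2 to 89.6 CPM in DHCA (median 76.4) and 22.5 to 90.8 CPM in sham (median 54.4). Its log2 fold change was 0.38 (standard error 0.27, adjusted p = 0.788 by edgeR), and 0.21 without Sham 1. The highest value of all 12 libraries was that of Sham 2, so the groups overlapped over the whole DHCA range. RPL9 had 58.6 to 99.2 CPM in DHCA (median 79.5) and 11.6 to 86.2 CPM in sham (median 68.6). Sham 1 held the 11.6 CPM, and the next sham library had 55.9 CPM. The RPL9 fold change was 0.37 with a standard error of 0.33, and 0.16 without Sham 1. RPL9 shares 41.8% of its exon bases with KLB, and RPL30 shares 17.2% with ERICH5. RPL37A, a zinc-binding protein, had 52.7 to 91.6 CPM in DHCA (median 65.1) and 27.1 to 72.2 CPM in sham (median 55.2), with a fold change of 0.32 and 0.19 without Sham 1.

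The large subunit genes with roles beyond core translation did not pass the test either. RPL5 had 136 to 181 CPM in DHCA (median 151) and 83.4 to 171 CPM in sham (median 138), with a fold change of 0.17 (standard error 0.17). Its partner RPL11 had 108 to 166 CPM in DHCA (median 136) and 60.5 to 169 CPM in sham (median 127), with a fold change of 0.21 (standard error 0.21). Sham 1 was the lowest library for both, and without it the fold changes were 0.06 and 0.07. MDM2, the ubiquitin ligase that both bind, had 37.0 ± 11.9 CPM in DHCA and 44.8 ± 7.58 CPM in sham (SD, n = 6 each) and a fold change of -0.27 with adjusted p = 0.805 by edgeR, and -0.19 without Sham 1. RPL26, at the exit of the peptide tunnel and known to bind p53 messenger RNA, had 69.5 to 117 CPM in DHCA (median 98.0) and 25.98 to 134 CPM in sham (median 89.7). The RPL26 fold change was 0.14, and -0.05 without Sham 1, so its direction rested on that library.

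The large subunit genes RPL10, RPL22, RPL3 and RPL7 had intervals that included 0. RPL10, a late-joining protein needed for the subunits to meet, had 142 to 167 CPM in DHCA (median 154) and 120 to 155 CPM in sham (median 142), with an interval of -0.13 to 0.42. RPL22, an RNA-binding protein also known from lymphocyte development in mouse, had 52.8 to 63.6 CPM in DHCA (median 55.3) and 43.0 to 63.8 CPM in sham (median 54.3), with an interval of -0.20 to 0.37. RPL3, which reaches into the peptidyl transferase centre, had 69.7 to 91.2 CPM in DHCA (median 84.4) and 42.7 to 88.2 CPM in sham (median 77.6), with an interval of -0.21 to 0.52. In all of these the groups overlapped and Sham 1 was lowest. RPL7 had 186 to 247 CPM in DHCA (median 216) and 188 to 269 CPM in sham (median 191), with an interval of -0.30 to 0.33 and Sham 1 highest. The fold changes of these 4 genes were 0.15, 0.09, 0.16 and 0.01 in the order named, and without Sham 1 they were 0.10, 0.03, 0.04 and 0.09.

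RPL7A and RPL35 were among the few negative genes. RPL7A had 232 to 355 CPM in DHCA (median 280) and 282 to 439 CPM in sham (median 301), with a fold change of -0.19 and -0.09 without Sham 1. RPL35, beside the tunnel exit, had 126 to 166 CPM in DHCA (median 148) and 146 to 181 CPM in sham (median 161), with a fold change of -0.14 (standard error 0.13, adjusted p = 0.818 by edgeR). Sham 1 was the highest library for both. The RPL35 fold change was -0.11 without Sham 1, so its direction did not rest on that library.

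The stalk proteins differed from each other in spread. RPLP0, the stalk base and a gene often used as a reference in quantitative PCR, had 244 to 344 CPM in DHCA (median 281) and 216 to 299 CPM in sham (median 269), with a log2 fold change of 0.13 and an interval of -0.16 to 0.43, and a fold change of 0.08 without Sham 1. RPLP2, one of the acidic proteins at its tip (chromosome 2, 507896 to 510700, plus strand), had 67.8 to 128 CPM in DHCA (median 104) and 72.8 to 314 CPM in sham (median 112). Sham 1 held the 314 CPM and the next sham library had 146 CPM. The RPLP2 fold change of -0.47 (standard error 0.33, adjusted p = 0.784 by edgeR) was -0.06 without Sham 1.

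The family's largest variation between libraries lay in Sham 1. Sham 1 was the lowest of the 12 libraries for 34 of the 46 genes (73.9%), where it was the lowest for 31.4% of all genes, and it was the highest for 7 of them (15.2%, beside 27.2% of all genes). On the log2(CPM + 0.5) scale, Sham 1 lay below the mean of the other 5 sham libraries in 38 genes and above it in 8, with a median of -0.76, beside -0.0046 over all genes. The most negative values were -2.56 for RPL9, -2.07 for RPS12 and -1.89 for RPL26, and the most positive were 1.62 for RPLP2 and 1.48 for RPS9. Genes for proteins of one particle thus deviated in both directions in this library. The 9 genes with models under 1000 bases had a median of -1.07 and the 37 longer ones a median of -0.72. The Spearman correlation of these values with model length was 0.28 across the 46 genes and -0.02 across all tested genes. RPL9, the most negative, has a model of 2739 bases. The first principal component of the family held 85.5% of its variance, with Sham 1 at 7.04 and the other 11 libraries between -2.29 and 1.16. The part of depth and of the low mitochondrial share in this pattern was not tested.

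**Figure D5:**
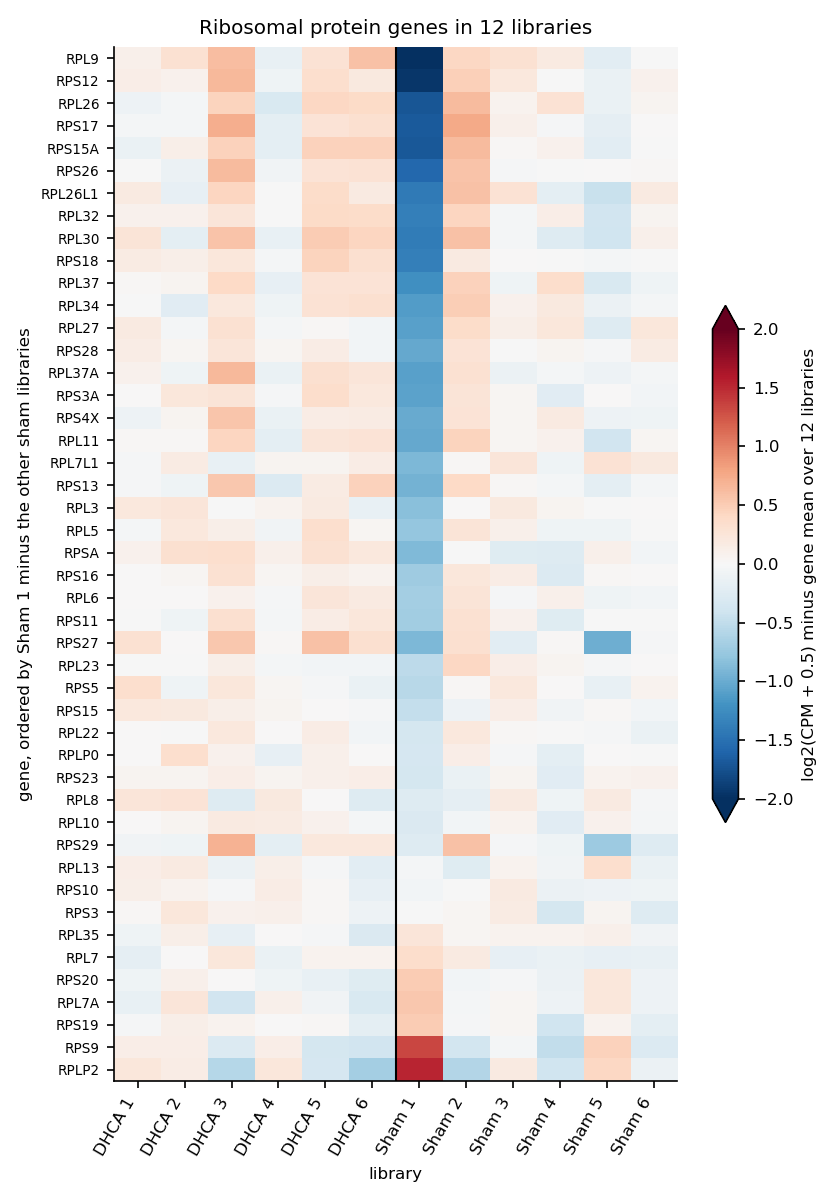
Log2(CPM + 0.5) of each tested ribosomal protein gene minus its mean over 12 libraries (colour, red above and blue below), with the 6 DHCA libraries left of the line and the 6 sham libraries right of it, and genes ordered by Sham 1 minus the mean of the other sham libraries. Sham 1 is below that mean in 38 of 46 genes, down to -2.56 for RPL9, and above it in 8, up to 1.62 for RPLP2.

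Within groups the family had a lower median spread than all tested genes, which were not matched to it in level. The part of level in this difference was not tested. The median within-group SD of the 46 genes on the log2 scale was 0.16 in DHCA and 0.43 in sham, where the median over all genes was 0.33 in DHCA and 0.50 in sham. Without Sham 1 the sham value was 0.19, beside 0.38 over all genes. DHCA 3 and Sham 2 held the highest value of 25 of the 46 genes (54.3%), where they held that of 22.4% of all genes. The 8 oligodendrocyte markers, of which 7 have an ID here, made up 6.05% of counts in DHCA 3 and 3.24% in Sham 2, the highest of each group. In the other libraries they made up 0.478% to 3.18%. Sham 5 held the 3.18%, and Sham 1, the lowest library for 34 of the 46 genes, had 2.76%. DHCA 5, which held the highest value of 4 genes, had the 0.478%. The part of oligodendrocyte content in these values was not tested.

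Ratios of paralogue to canonical gene within a library do not depend on scaling. Of 7 pairs, 3 had enough counts for a test. The RPL7L1 to RPL7 log2 ratio was -2.33 ± 0.217 in DHCA and -2.39 ± 0.647 in sham, and the RPL26L1 to RPL26 log2 ratio was -3.04 ± 0.212 in DHCA and -3.11 ± 0.297 in sham (SD, n = 6 each). The paralogues thus had 20.3 and 11.97 counts for every 100 of the canonical gene over all libraries. The differences of 0.06 and 0.07 gave p = 0.903 and 0.634 in exact 2-sided permutation tests, both with an adjusted p of 0.903. The first difference was -0.19 without Sham 1 and the second -0.02 without Sham 4, so the sign of each turned on 1 library. The RPS27L to RPS27 log2 ratio was 0.26 ± 0.454 in DHCA and 0.59 ± 0.218 in sham (SD, n = 6 each). RPS27L is known as a p53 target and is named here only by the reference table. That ratio was -0.26 to 1.1 in DHCA and 0.26 to 0.94 in sham. DHCA 3 held the 1.1, and Sham 5, with 6 RPS27 counts, held the 0.94. The difference of -0.34 gave p = 0.149 in an exact 2-sided permutation test and 0.448 after Benjamini-Hochberg adjustment over the 3 pairs, where the smallest p possible is 0.00216. Without DHCA 3 the difference was -0.50, with an adjusted exact p of 0.0130, so whether this pair passed turned on 1 library. The groups were then set apart only narrowly, with DHCA 6 at 0.256 and Sham 6 at 0.258.

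No gene of the lists around the ribosome passed the test. The 8 lists (elongation factors, other TOP messenger RNAs, initiation factors, ribosome biogenesis factors, RNA polymerase I, regulators around mTOR and MYC, ribosome stress and surveillance, and the mitochondrial ribosome) had 0 genes with an adjusted p under 0.05 by edgeR. At an unadjusted p under 0.05 edgeR counted 9 of these 231 genes (3.9%, beside 7.9% of all genes). DESeq2 and limma-voom called 0. With sample quality weights limma-voom called 2 of the 231, DDIT4 and IFRD1, where it called 1.48% of all genes. Other TOP messenger RNAs had 16 of 20 positive and a median of 0.19, and 0.09 without Sham 1. In Sham 1, 17 of these 20 lay below the mean of the other sham libraries, with a median of -0.63. The other lists around the ribosome had Sham 1 medians from -0.42 (initiation factors) to 0.26 (ribosome biogenesis factors). Cell type lists ran wider, from -1.96 for 3 blood cell genes to 1.46 for 7 oligodendrocyte genes. The mitochondrial ribosome, a separate particle that translates mitochondrial messenger RNA, had 36 of 63 positive, a median fold change of 0.04 that was 0.02 without Sham 1, and a Sham 1 median of -0.18.

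RACK1, a signalling scaffold on the small subunit, had 161 ± 14.7 CPM in DHCA and 135 ± 46.1 CPM in sham, with a fold change of 0.24 and 0.07 without Sham 1. EEF1A1, which delivers transfer RNA to the ribosome, had 968 ± 172 CPM in DHCA and 808 ± 263 CPM in sham, with a fold change of 0.26 and 0.10 without Sham 1. EEF2, the translocase, had a fold change of 0.02 with a standard error of 0.14, and 0.01 without Sham 1. EEF1G was high in Sham 1, like RPLP2, and had 232 ± 32 CPM in DHCA and 318 ± 142 CPM in sham (SD, n = 6 each). Its fold change was -0.45, and -0.18 without Sham 1.

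For the other lists, initiation factors had 18 of 27 positive and a median of 0.14, which was 0.07 without Sham 1. EIF4A1, the helicase that unwinds messenger RNA for the scanning ribosome, had 172 to 235 CPM in DHCA and 136 to 181 CPM in sham, with a fold change of 0.40 (standard error 0.14, adjusted p = 0.425 by edgeR) and 0.36 without Sham 1. The EIF4A1 groups overlapped through Sham 2, at 181 CPM. Ribosome biogenesis factors had 20 of 51 positive and a median of -0.05, and the RNA polymerase I list had 9 of 19 positive and a median of -0.02. Both lists thus had medians opposite in sign to the ribosomal protein genes, and without Sham 1 both were 0.01. WDR43, a factor of early small subunit assembly, had the smallest p of the biogenesis list, with a fold change of 0.54 and adjusted p = 0.584 by edgeR, and a fold change of 0.40 without Sham 1. In these lists NCL (nucleolin) had a fold change of -0.13, FBL (fibrillarin) of -0.09, POLR1A of -0.07 and UBTF, a factor of ribosomal DNA transcription, of -0.61. Without Sham 1 these values were 0.03 for NCL, whose direction turned on that library, -0.04 for FBL and -0.05 for POLR1A. UBTF was highest in Sham 1 and its fold change was -0.29 without it, with adjusted p = 0.649 with all libraries and 0.879 without Sham 1 by edgeR.

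Of the regulators around mTOR and MYC, 16 of 26 were positive with a median of 0.09, which was 0.03 without Sham 1. DDIT4, a stress-induced inhibitor of mTOR, had 32.8 to 66.1 CPM in DHCA and 22.2 to 57.8 CPM in sham, where Sham 1 held the 57.8 CPM. Its fold change was 0.60 (adjusted p = 0.588 by edgeR) and 0.88 without Sham 1 (adjusted p = 0.0767 by edgeR). SESN1, another inhibitor upstream of mTOR, had 51.7 to 92.5 CPM in DHCA and 38.6 to 61.2 CPM in sham, with a fold change of 0.48 (adjusted p = 0.488 by edgeR) and 0.47 without Sham 1. MYCN, a relative of MYC, had a fold change of -0.82 and -0.47 without Sham 1. MYC, EIF4EBP1 and LARP1 had fold changes of 0.03, 0.04 and -0.14, and without Sham 1 these were 0.11, 0.03 and -0.08. In the surveillance list, which had 11 of 21 positive and a median of 0.0053 (-0.02 without Sham 1), IFRD1, a relative of the ribosome-binding protein IFRD2, had 36.4 to 66.4 CPM in DHCA and 20.0 to 38.4 CPM in sham. The IFRD1 groups overlapped only through Sham 4, at 38.4 CPM, and its fold change was 0.80 (standard error 0.21, adjusted p = 0.204 by edgeR) and 0.74 without Sham 1.

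In the authors' deposited table, 0 of the 47 ribosomal protein genes with an adjusted p had one under 0.05, where 1.29% of all genes with one did. Of the 48 fold changes in the authors' deposited table, 41 were positive, with a median of 0.17, and the median over all its genes was -0.06. At an unadjusted p under 0.05 the authors' deposited table had 2 of them, RPSA and RPS27.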

How the data were processed

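RNA was isolated with RNeasy columns, and libraries were made with a TruSeq kit and sequenced on an Illumina HiSeq, per the labels' protocols. The deposited counts are raw counts per gene made with featureCounts 1.5.1 over exons, per the file headers, with no strand option and no option for reads that overlap several genes or map to several places. Reads of a gene and an antisense gene, or of a gene and a processed pseudogene, may therefore be lost or not told apart. The build is Sscrofa11.1, per the submitters' processing notes, and for the aligner no name is given in the labels or headers. A further 6 library columns were not used. Gene length is the other deposited value of that table, in bases of merged exons, per the file headers. The authors' deposited table holds for each gene p-values, a log2 fold change, a statistic (score) and a mean signal after normalization, per the file headers. In all 21223 rows its statistic and fold change have opposite signs. Its direction was taken to be DHCA minus sham, since it correlated at 0.967 with the fold changes computed here across 14004 genes, which are not independent.

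Samples were grouped by title, 6 piglets per group, so p-values set the group difference against the spread between libraries of different animals. In that spread, the animals, the low depth of Sham 1 and Sham 5 and the tissue of Sham 4 cannot be told apart. Genes were filtered with filterByExpr and TMM-scaled, and tested in R 4.3.3 with edgeR 4.0.16 (robust quasi-likelihood, group as the only term, Benjamini-Hochberg over 14004 genes, threshold 0.05). The standard error was taken from the F statistic. Paralogue pairs with a mean of at least 10 counts in both genes were compared by log2 ratios of counts plus 0.5 with an exact permutation test (SciPy 1.17.1). Members and lists were chosen with earlier results of these data known. Named genes were the 5 most positive and 5 most negative, the 5 with the smallest p, the 5 highest and 3 lowest per length, and genes fixed by role; in each translation list they were up to 3 with the smallest p and some fixed by role. Alternatives were DESeq2 1.42.0, limma 3.58.1 voom with and without quality weights, other scalings, filters and thresholds, a replicate block, and leaving out libraries. The chi-square per degree of freedom between libraries of one group was 8.50 to 125.8, so none looked deposited more than once. On simulated data for this comparison (13853 genes for edgeR and voom, 14004 for DESeq2), edgeR recovered 35% of 2-fold and 92% of 4-fold changes with 0 unchanged genes called, DESeq2 55% and 98% with 21, and voom 35% and 91% with 1. No sequence is shown, as no sequence tables were used here.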

Additional observations from a re-analysis of the deposited data

Results flagged for a closer look

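In 62 groups of 6 values, 8 had a highest or lowest library set apart from the rest by more than Dixon's limit, which chance passes in about 1 in 20 groups. In 6 of the 8 the library was Sham 1. It was low for RPS18 at 27.9 CPM (next 70.6), for RPS28 at 21.7 CPM (next 43.9) and for RPL3 at 42.7 CPM (next 76.6). It was high for RPLP2 at 314 CPM (next 146) and for RPS9 at 205 CPM (next 111). The log2 ratio of RPL7L1 to RPL7 was -3.62 in Sham 1, and the next was -2.52. In the DHCA group DHCA 3 was high for RPS16 at 90.6 CPM (next 79.4) and for RPS4X at 278 CPM (next 212).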

How the results depend on the processing

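The count of 0 called ribosomal protein genes was the same under all alternatives run, including thresholds of 0.01 and 0.1. So was the 0 of the translation lists, except under sample quality weights (2 called, where 1.48% of all genes were). The median fold change kept its sign, from 0.01 without Sham 1, 4 and 5 to 0.22; leaving out 1 library it was 0.06 to 0.22, and sample quality weights gave 0.06. Adding the 11 reference-named genes with counts, or taking only genes without exon overlap, both chosen after seeing the data, gave 0.14. The share difference was 0.0042 to 0.030 percentage points leaving out 1 library, 0.0394 outside the mitochondrial chromosome and 0.0447 with the 10 most abundant genes also left out.

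Of 621 values for 27 named genes in 23 other fits, 580 kept their direction, 41 reversed and 0 passed the threshold, with a smallest adjusted p of 0.174. Without Sham 1 and 5 the reversed values were RPLP2 0.084, RPS9 0.20, RPS20 0.0049, RPL11 -0.018, RPS28 -0.022, RPL7L1 -0.054, RPL26L1 -0.071, RPS19 0.13 and RPL26 -0.12. Without Sham 1, 4 and 5 they were RPLP2 0.021, RPS9 0.13, RPL11 -0.048, RPS28 -0.050, RPS16 -0.031, RPL7L1 -0.12, RPL26L1 -0.20, RPS19 0.050, RPL5 -0.019 and RPL26 -0.13. Sample quality weights gave RPS9 0.11, RPL7L1 -0.12, RPL26L1 -0.050, RPS19 0.068 and RPL26 -0.051, and limma-voom gave RPS19 0.0011. No filter gave RPS19 0.0013, upper-quartile factors RPL7L1 -0.0069 and RPL7 -0.036, and TMM without the family and mitochondrial genes RPL7 -0.0014. Leaving out 1 library, the lowest and highest values were -0.47 and 0.018 for RPS9, -0.0024 and 0.21 for RPS28, -0.094 and 0.091 for RPL7L1, -0.11 and 0.085 for RPS19, -0.050 and 0.089 for RPL7, and -0.055 and 0.31 for RPL26. The cause was not tested.

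The RPL7L1 to RPL7 difference ran from -0.19 to 0.16 leaving out 1 library and was -0.12 without Sham 1 and 5 and -0.16 without Sham 1, 4 and 5. That of RPL26L1 to RPL26 ran from -0.020 to 0.13, with -0.046 at a pseudocount of 5 and -0.070 without Sham 1, 4 and 5. That of RPS27L to RPS27 ran from -0.50 to -0.23.

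Replicate numbers were not used as pairs in the main fit. The deviations of same-numbered libraries correlated between -0.39 and 0.34, which cannot exclude a pairing by design. With the replicate block 0 ribosomal protein genes were called and the median was 0.18. Paralogue differences with the block were the same, with adjusted exact p of 0.844, 0.875 and 0.875. RPL10A and RPL3L had too few counts to be tested.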
